A study of Mus musculus with 6 samples.

Results

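The protein phosphatase subunits described here are the catalytic and regulatory subunits of the serine/threonine phosphatases PP1 to PP6, calcineurin included, measured in hippocampal RNA of Glud1 Tg and wt mice. A gene was taken when its probe annotation gave a single symbol of the PP1 to PP6 catalytic or regulatory series. Ppp1r1b was left out. The rule found 78 genes of 18193 and 171 probesets of 45037. After the 31% of probesets with the lowest level had been left out, 67 of these genes and 147 of these probesets remained. Each gene is represented by its brightest remaining probeset. The text gives other probesets for some genes only, and these can differ in sign from the brightest. A later figure shows the log2 fold changes of every remaining probeset of the genes with several. The Tg mice carried an added Glud1 gene, for glutamate dehydrogenase, under the neuron-specific enolase (Nse) promoter, which per the study's account of the mouse line restricts the added expression to neurons, and the wt mice did not. Both groups were untreated males, 9 months old, of the C57BL/6 background, with 3 mice each and 1 Affymetrix Mouse Genome array per mouse. A probeset is a group of short probes that reads 1 stretch of a messenger RNA, mostly near its 3′ end, and its MAS5 signal is a brightness on a linear scale.

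Phosphatases of this family remove phosphate from serine and threonine. A small number of catalytic subunits is directed to many substrates by a much larger number of regulatory subunits, which anchor, scaffold or inhibit them. Calcineurin, which pairs a catalytic A subunit with a calcium-binding B subunit, is switched on by calcium. In hippocampal neurons calcineurin and PP1 are known for their part in long-term depression of synapses, in which glutamate receptors are dephosphorylated, and calcineurin moves NFAT transcription factors to the nucleus. PP2A is a trimer of a scaffold, a catalytic subunit and 1 of several B subunits.

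The arrays of both groups had the same trimmed mean signal, but the median signal of the probesets kept was 309.65 to 318.9 in Tg arrays and 297.3 to 305.35 in wt arrays, without overlap. The 2 probesets of Glud1 did not show a higher signal in Tg mice (log2 fold change -0.15 and -0.09), but the 3′ end of the transgene was not known here, so they do not check the labels. Markers of hippocampal cells were present, with all 8 markers of dentate granule cells, all 5 of CA1 and all 6 of CA2 and CA3 past the filter. Some marker lists differed between the groups. All 8 markers of dentate granule cells had a positive log2 fold change, with a median of 0.44 (Tg minus wt), and their summed signal was 18729 to 20848.5 in Tg arrays and 14825 to 19303 in wt arrays. The summed signal of CA2 and CA3 markers was 5987 to 7229 in Tg arrays and 4922 to 5624 in wt arrays, with 5 of 6 markers higher in Tg. That of 4 measured markers of subiculum and retrohippocampal cortex was 1533 to 1977 in Tg arrays and 2814 to 3749 in wt arrays, with none higher in Tg. Interneuron markers summed to 17105 to 20098 in Tg arrays and 20298 to 24960.1 in wt arrays, with none of 6 higher in Tg. Astrocyte markers summed to 26492 to 27091 in Tg arrays and 27412 to 31184 in wt arrays, with 1 of 6 higher in Tg. Microglia markers summed to 12302 to 12951 in Tg arrays and 13205 to 14446 in wt arrays, with 3 of 7 higher in Tg. The choroid plexus sum was 4628 to 67035 in Tg arrays, with Tg 3 at the low end, and 48207 to 54625 in wt arrays. The sums of dentate granule cell and choroid plexus markers overlapped between the groups. So did those of the remaining lists (CA1, all excitatory neurons, striatum, oligodendrocytes, and endothelial and mural cells). The signal of 18S ribosomal RNA was 976 to 3313 in Tg arrays and 2287 to 13960.0 in wt arrays. The Actb 3′ to 5′ signal ratio, a sign of RNA quality, was 1.64 to 1.69 in Tg arrays and 1.70 to 1.95 in wt arrays, without overlap. The same ratio for Gapdh was 0.781 to 0.8 in Tg arrays and 0.752 to 0.908 in wt arrays, with overlap. The part of these differences in the phosphatase values was not tested, and in these bulk samples fewer cells of a type and less RNA per cell cannot be told apart.

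No phosphatase gene differed between Tg and wt mice after adjustment for multiple tests. At an adjusted p under 0.05 limma called 0 of the 67 genes, against 0% of all 13854 genes past the filter, and the lowest adjusted p of a phosphatase gene was 0.288. Cyber-T, a test the study's methods name, also called 0 of the 67, with a lowest adjusted p of 0.138, where 0.217% of all genes were called. At an unadjusted limma p under 0.05, 1 gene was higher in Tg mice, where 2.9% of all genes were, and 3 were lower, where 4.97% of all genes were. Fold changes are given as the log2 fold change of Tg minus wt on log2(signal + 16), which shrinks those of dim probesets. By contrast, the study lists Ppp3ca and Ppp1r13b among its up-regulated genes, from RMA values and with a fold of at least 1.3 required. Here Ppp1r13b had a log2 fold change of 0.04 (limma, unadjusted p = 0.731, adjusted p = 0.932). The reason for the difference was not tested.

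The differences lay on both sides of 0 and were small. Of the 67 genes, 33 had a positive and 34 a negative log2 fold change, with a median of -0.01, against -0.03 for all genes. With each array centred on its own median, 18 of the 67 were positive, with a median of -0.08 against -0.10 for all genes. The median size of the log2 fold change was 0.11 for the phosphatase genes and 0.14 for all genes. Among the phosphatase genes 4 exceeded a fold of 1.3 in either direction, against 2084 of the 13854. Their median SD between arrays of one group was 0.13 on the log2 scale, against 0.20 for all genes, and their probesets were brighter, with a median mean signal of 1126 against 530.4. For 33 of the 67 genes the 95% interval of the difference lay wholly within a 1.3-fold change in either direction.

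**Figure D1:**
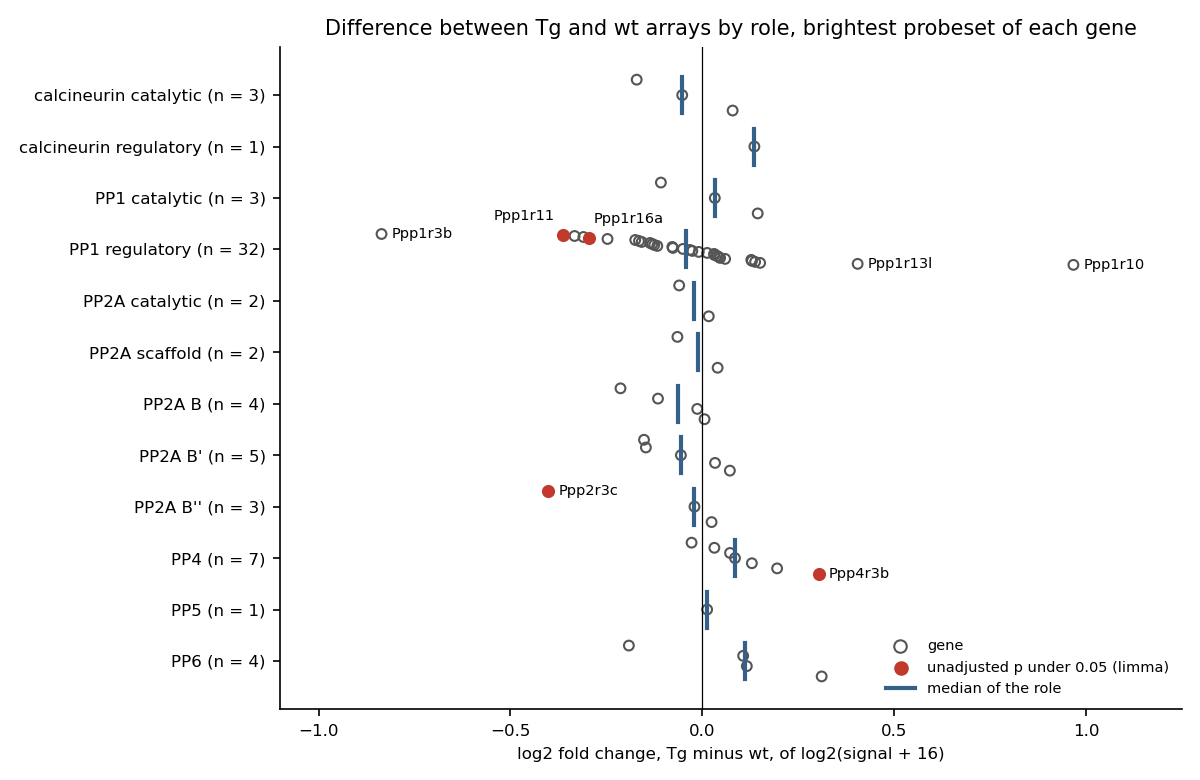
Each circle is 1 of the 67 genes at its brightest probeset, placed by its log2 fold change (Tg minus wt, horizontal axis) and by role (rows), with blue bars at the median of a role. The 4 filled circles have an unadjusted limma p under 0.05, and most other genes lie close to 0.

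Among the 4 genes past 1.3-fold, 3 were dim and varied strongly between arrays, and they are named here after their values were seen. Ppp1r10, the nuclear PP1-targeting subunit PNUTS, had 154, 176 and 126 in Tg arrays, against 20.6, 72.0 and 176 in wt arrays. Its groups overlap, since wt 3 was level with Tg 2, the highest Tg array, and the p was 0.0788 (limma, adjusted 0.57). Ppp1r3b, a glycogen-targeting subunit of PP1, had 18.5, 96.9 and 20.4 in Tg arrays, against 65.2, 107 and 64.7 in wt arrays, with Tg 2 far above the other Tg arrays. Ppp1r13l, the p53-binding protein iASPP, had 444, 323 and 309 in Tg arrays, against 349.7, 329 and 157 in wt arrays, and its groups overlap too. The other gene past 1.3-fold is Ppp2r3c.

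Calcineurin subunits showed no difference larger than the spread between arrays at their brightest probesets, although the study lists Ppp3ca as up-regulated from RMA values. Ppp3ca, a catalytic subunit abundant in forebrain neurons, had signals of 26501, 27951 and 26056 in Tg arrays, against 27969, 24552 and 23851 in wt arrays. The log2 fold change was 0.08, with a 95% interval from -0.09 to 0.24, and wt 1 was level with the highest Tg array. Ppp3cb, the second catalytic subunit, had 13845, 11884 and 12344 in Tg arrays, against 12822, 14219 and 12427 in wt arrays (log2 fold change -0.05 with an SE of 0.08, unadjusted p = 0.539, adjusted p = 0.87). Ppp3cc, the third, was dim at 207, 192 and 154 in Tg arrays, against 247, 173 and 211 in wt arrays, with a wide interval from -0.68 to 0.34. Ppp3r1, the calcium-binding B subunit, had 19442, 16005 and 18379 in Tg arrays, against 15447, 16104 and 17338 in wt arrays (log2 fold change 0.14 with an SE of 0.08, unadjusted p = 0.136, adjusted p = 0.636). Tg 2 lay inside the wt range, and without it the unadjusted p of Ppp3r1 was 0.0241. The log2 fold change of Ppp3r1 was 0.20 after quantile normalization, with an unadjusted limma p of 0.0402.

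The further probesets of calcineurin did not all point the same way. Ppp3ca had higher signals in every Tg array at both of its other probesets. At 1438478_a_at they were 12095, 10537 and 10449.6 in Tg arrays, against 10308, 9239.9 and 9455 in wt arrays, and the log2 fold change was 0.19 with an SE of 0.08, unadjusted p = 0.042, adjusted p = 0.494. That value was 0.12 after median centring of the arrays (unadjusted limma p of 0.206) and 0.12 without Tg 1 (0.189), and its p was also above 0.05 without wt 2 or wt 3, without the filter and in limma without the intensity trend. At 1452056_s_at they were 11039, 9648 and 9932 in Tg arrays, against 9281, 9224 and 9309 in wt arrays, with wt arrays close together. Probesets ending in _a_at read alternative transcripts of 1 gene, and those ending in _s_at hold probes shared by several transcripts. Ppp3cb had 5 measured probesets, of which 2 separated the groups in opposite directions. At 1428474_at the signals were 331, 220.4 and 238 in Tg arrays, against 395, 436 and 353 in wt arrays (log2 fold change -0.57 with an SE of 0.20, unadjusted p = 0.0139, adjusted p = 0.381), and without Tg 2 or wt 2 the unadjusted p was above 0.05 (0.0531 at most). At the dim 1446149_at they were 82.9, 94.8 and 79.8 in Tg arrays, against 67.2, 2.9 and 47.9 in wt arrays, where wt 2 was near 0, and the log2 fold change was 1.13 with an SE of 0.57, unadjusted p = 0.0727, adjusted p = 0.56. The 3 brighter probesets of Ppp3cb overlapped between groups, with log2 fold changes between -0.05 and 0.05. The other probeset of Ppp3r1, 1421786_at, had a log2 fold change of 0.29 with an SE of 0.15 (limma, unadjusted p = 0.0843, adjusted p = 0.579), with overlap. For Ppp3cc the dim 1430025_at gave 0.59 with an SE of 0.44 (limma, unadjusted p = 0.2, adjusted p = 0.691), against -0.17 at its brightest, with overlap. The 3 probesets of Ppp3ca and the 2 of Ppp3r1 all had positive log2 fold changes.

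Differences of the catalytic subunits were small. Over all 11 catalytic subunits, 6 log2 fold changes were positive and 5 negative, from -0.19 to 0.14. None had an unadjusted p under 0.05. After centring each array on its own median, 3 were positive, Ppp1cc (log2 fold change -0.17) had an unadjusted limma p of 0.0423, and Ppp6c (-0.26) had one of 0.0463. After quantile normalization the log2 fold change of Ppp1cb was 0.19, with an unadjusted limma p of 0.0359. The 95% interval lay within 1.3-fold for 8 of the 11, all but Ppp3cc, Ppp4c and Ppp6c.

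**Figure D2:**
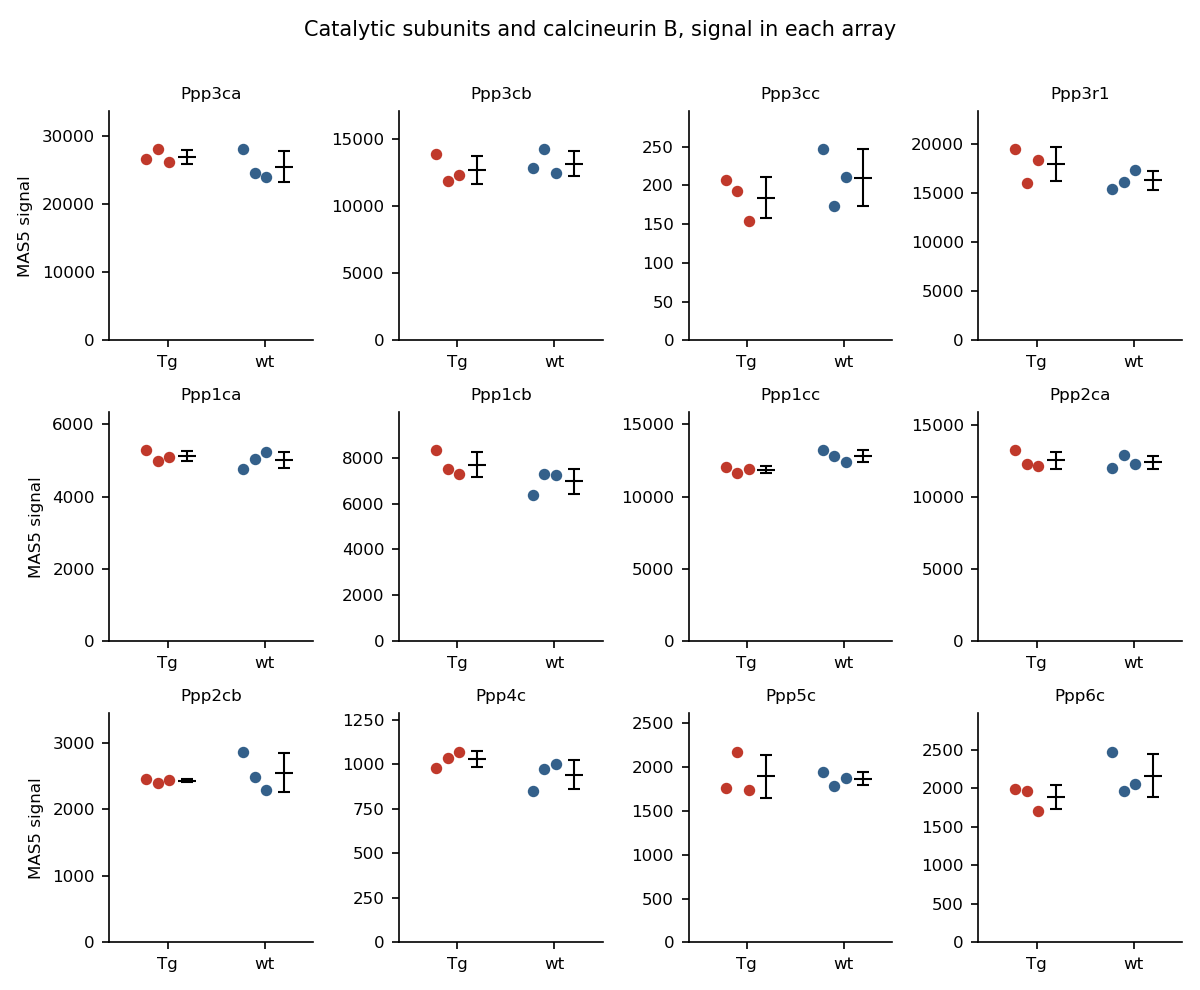
MAS5 signal (vertical axes, linear from 0) of the 11 catalytic subunits and of Ppp3r1, with a point for each array and a bar for the mean and SD of 3 arrays. The Tg and wt arrays overlap in every panel except that of Ppp1cc, where the highest Tg array is at 12069.5 and the lowest wt array at 12364.

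PP1 has 3 catalytic genes. Ppp1ca had 5272, 4989 and 5099.9 in Tg arrays, against 4769, 5029 and 5227 in wt arrays (log2 fold change 0.03, interval -0.14 to 0.20). Ppp1cb had 8313, 7503 and 7269.8 in Tg arrays, against 6357, 7299 and 7235 in wt arrays (log2 fold change 0.14, interval -0.04 to 0.33), with wt 1 apart from the other wt arrays. Ppp1cc, whose product is enriched in dendritic spines, had 12069.5, 11622 and 11897 in Tg arrays, against 13192, 12813 and 12364 in wt arrays at its brightest probeset, and every Tg array lay below every wt array. The log2 fold change was -0.11 with an SE of 0.07, unadjusted p = 0.139, adjusted p = 0.64. Its other probeset, 1452046_a_at, separated the groups the other way, with 2486, 2709 and 2762 in Tg arrays, against 2252, 2235 and 2297 in wt arrays and a log2 fold change of 0.23 with an SE of 0.09, unadjusted p = 0.0244, adjusted p = 0.442. The unadjusted p at that probeset was above 0.05 after median centring (0.096), in limma without the intensity trend (0.085) and without Tg 2, Tg 3 or wt 2 (0.0825 at most). Both probesets read alternative transcripts of the gene.

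PP2A has a pair of catalytic and a pair of scaffold genes. Ppp2ca had 13225, 12259 and 12167 in Tg arrays, against 12039, 12887 and 12278 in wt arrays (log2 fold change 0.02, interval -0.14 to 0.17). Ppp2cb had 2462, 2404 and 2435 in Tg arrays, against 2870.2, 2481 and 2298 in wt arrays, with Tg arrays close together inside the range of the wt arrays. The scaffold Ppp2r1a had 27235, 27349.9 and 29992 in Tg arrays, against 31040.0, 28867 and 28543 in wt arrays (log2 fold change -0.06, interval -0.22 to 0.09). That probeset ends in _x_at, so some of its probes may bind other sequences. Among its 4 other probesets the Tg arrays were all lower at 1438991_x_at, with 27244, 27590.1 and 28279.8 in Tg arrays, against 30507, 28378 and 28535 in wt arrays, a log2 fold change of -0.07. The second scaffold, Ppp2r1b, had 521, 495 and 475 in Tg arrays, against 428, 465 and 565 in wt arrays, and its groups overlap.

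The catalytic subunits of PP4, PP5 and PP6 overlapped between the groups. Ppp4c had 981, 1035 and 1071 in Tg arrays, against 849, 971 and 1004 in wt arrays (log2 fold change 0.13 with an SE of 0.12, unadjusted p = 0.29, adjusted p = 0.75). Ppp5c, the phosphatase that binds the chaperone HSP90, had 1763, 2176 and 1737 in Tg arrays, against 1938, 1784 and 1878 in wt arrays, with Tg 2 above the rest, and its interval ran from -0.23 to 0.25. Ppp6c had 1986, 1969 and 1708 in Tg arrays, against 2474, 1963 and 2053 in wt arrays (log2 fold change -0.19 with an SE of 0.11, unadjusted p = 0.116, adjusted p = 0.618), with wt 1 above the rest.

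The 56 regulatory subunits held all 4 genes with an unadjusted limma p under 0.05. Of these, 1 was higher and 3 were lower in Tg mice, where 2.9% and 4.97% of all genes were. In number 27 had a positive and 29 a negative log2 fold change. The 32 regulatory genes of PP1 had 13 positive values, with a median of -0.04, where 44.1% of all genes were positive. After median centring of the arrays, 6 of the 32 were positive. With the probesets of a gene averaged, 20 of the 32 were positive.

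Ppp1r11, inhibitor-3 of PP1, had the lowest unadjusted p. Its signals were 1731, 1877 and 2076 in Tg arrays, against 2255, 2689 and 2382 in wt arrays, and each Tg array lay below each wt array. The log2 fold change was -0.36 with an SE of 0.11, unadjusted p = 0.00492, adjusted p = 0.288. The second probeset, 1417060_at, had 1042, 1020.3 and 1108 in Tg arrays, against 1077, 1194 and 1423 in wt arrays, where Tg 3 lay above wt 1 (log2 fold change -0.21 with an SE of 0.12, unadjusted p = 0.117, adjusted p = 0.619).

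Ppp1r16a, a myosin phosphatase targeting subunit also called MYPT3, had a negative log2 fold change at both probesets. At the brightest, 1459751_s_at, it had 1231, 1251 and 1232 in Tg arrays, against 1625, 1549 and 1402 in wt arrays. The Tg arrays lay close together and below all wt arrays, with a log2 fold change of -0.30 with an SE of 0.10, unadjusted p = 0.0143, adjusted p = 0.383. At 1452724_at the signals were 502, 441 and 544 in Tg arrays, against 631, 517 and 703 in wt arrays, and the groups overlap, since Tg 3 was above wt 2 (log2 fold change -0.30 with an SE of 0.16, unadjusted p = 0.0807, adjusted p = 0.574).

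Ppp2r3c, a B″ subunit of PP2A, had lower Tg signals at its brightest probeset and higher ones at its other probeset. At 1417478_a_at it had 789, 804 and 712 in Tg arrays, against 949, 1063 and 1046 in wt arrays, with a gap between the groups and a log2 fold change of -0.40 with an SE of 0.12, unadjusted p = 0.00541, adjusted p = 0.29. At the dimmer 1417479_at it had 152, 146 and 144 in Tg arrays, against 111, 86.7 and 81.1 in wt arrays, where every Tg array was above every wt array (log2 fold change 0.59 with an SE of 0.29, unadjusted p = 0.0613, adjusted p = 0.539).

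Ppp4r3b, a regulatory subunit of PP4, was the 1 gene with higher Tg signals and an unadjusted p under 0.05. Its signals were 1351, 1386 and 1526 in Tg arrays, against 1195, 1070.0 and 1181 in wt arrays, without overlap, and the log2 fold change was 0.30 with an SE of 0.11, unadjusted p = 0.0154, adjusted p = 0.39. All 3 other probesets had a positive log2 fold change, from 0.01 to 0.25, and at 1423198_a_at the groups also did not overlap, with 624, 592 and 567 in Tg arrays, against 531, 448 and 514 in wt arrays. Without Tg 3, or without wt 2, the unadjusted p of Ppp4r3b was above 0.05 (0.0665 at most), whereas Ppp1r11, Ppp1r16a and Ppp2r3c kept an unadjusted p under 0.05 without any single array. At the mean of all their probesets, Ppp2r3c (log2 fold change 0.09, unadjusted limma p of 0.496) and Ppp4r3b (0.20, unadjusted limma p of 0.0899) no longer had one, and Ppp2r3c changed sign.

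**Figure D3:**
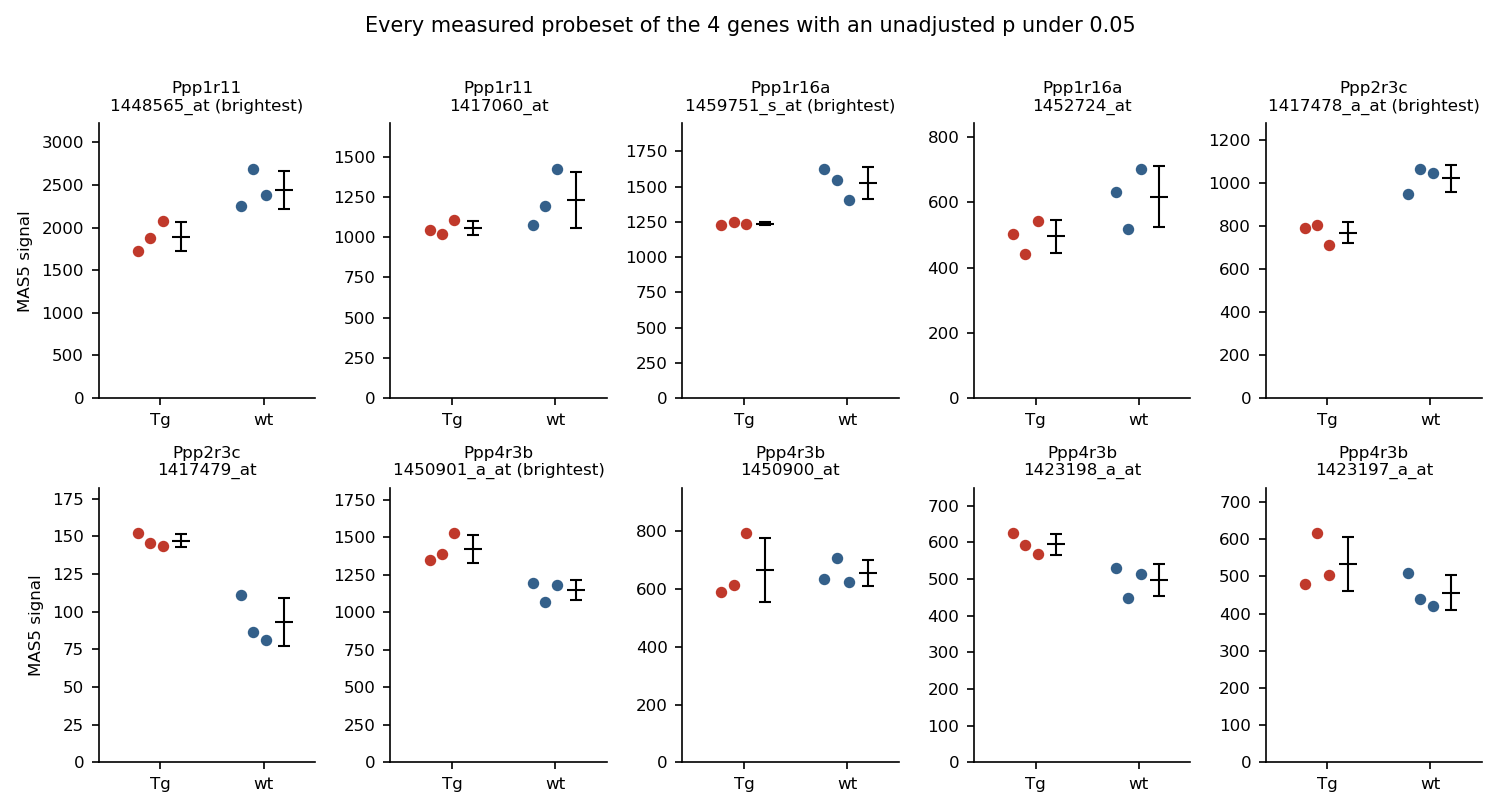
MAS5 signal (vertical axes, linear from 0) at each measured probeset of the 4 genes with an unadjusted p under 0.05, with a point for each array and a bar for the mean and SD of 3 arrays. The probesets of Ppp1r11 and Ppp1r16a point the same way, and the Tg arrays of Ppp2r3c lie below the wt arrays at 1417478_a_at and above them at 1417479_at.

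The bases before the start of these genes are shown because the 4 have the lowest p values among the phosphatase genes. They are the 250 bases upstream of the start in RefSeq (build GRCm38.p6). Ppp1r16a had no entry. Capitals mark a CCAAT box (CCAAT, or ATTGG on the other strand) or a GC box (GGGCGG, or CCGCCC on the other strand), and these motifs can share bases where they adjoin.
Ppp1r11 (chr17:36951793-36952042, minus strand): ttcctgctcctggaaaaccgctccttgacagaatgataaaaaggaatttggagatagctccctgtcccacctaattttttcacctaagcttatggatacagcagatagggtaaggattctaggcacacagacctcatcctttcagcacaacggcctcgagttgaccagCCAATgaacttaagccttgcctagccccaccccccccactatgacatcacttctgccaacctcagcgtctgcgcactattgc
Ppp2r3c (chr12:55303001-55303250, minus strand): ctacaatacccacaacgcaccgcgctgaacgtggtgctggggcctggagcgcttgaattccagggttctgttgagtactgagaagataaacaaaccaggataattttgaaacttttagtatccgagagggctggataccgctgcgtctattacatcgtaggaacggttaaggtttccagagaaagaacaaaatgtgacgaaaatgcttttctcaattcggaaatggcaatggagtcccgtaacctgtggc
Ppp4r3b (chr11:29172726-29172975, plus strand): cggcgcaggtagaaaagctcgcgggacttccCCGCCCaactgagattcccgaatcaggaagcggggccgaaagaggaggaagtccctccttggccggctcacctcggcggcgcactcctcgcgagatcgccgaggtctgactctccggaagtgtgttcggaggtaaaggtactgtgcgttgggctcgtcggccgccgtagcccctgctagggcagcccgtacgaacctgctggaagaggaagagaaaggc

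Among the 67 genes, 53 had a promoter in that table, with 66 promoters in all. A GC box stood in 68.2% of these, against 32.7% of all 32851 promoters over the same 250 bases. A CCAAT box stood in 31.8%, against 33.8% of all. The cyclic AMP response element TGACGTCA, the same letters on both strands, stood in 5 promoters of 4 genes, or 7.58%, against 1.55% of all. None of the 3 sequences shown held it. The 67 genes had passed the signal filter, whereas the 32851 promoters were taken without one. The part of that in these shares was not tested. A match of letters is not a binding site, and promoters of 1 gene can share bases.

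Across all 67 genes the Tg and wt arrays did not overlap in 11. In 3 genes (Ppp1r21, Ppp4r2 and Ppp4r3b) every Tg array was above every wt array, where this held for 5.2% of all genes. In 8 genes every Tg array was below, where this held for 8.81% of all genes. The balance was the other way over all 147 probesets of these genes, where every Tg array was above in 15 and below in 11, against 8.58% and 6.67% of all probesets. Ppp1r3d, a glycogen-targeting subunit of PP1, was among the 8, with 179, 139.7 and 186 in Tg arrays, against 188, 237 and 209.9 in wt arrays (log2 fold change -0.31 with an SE of 0.23, unadjusted p = 0.205, adjusted p = 0.696). Ppp2r2b, a B subunit of PP2A enriched in neurons, had 1989, 1728 and 2025 in Tg arrays, against 2071, 2069 and 2070.0 in wt arrays. Its wt arrays differed by less than 2 signal units, while Tg 2 was well below the others (log2 fold change -0.12 with an SE of 0.10, unadjusted p = 0.257, adjusted p = 0.733).

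The regulators with the brightest probesets of their role showed small differences. Ppp1r2, inhibitor-2 of PP1, had 5001, 4797 and 5059 in Tg arrays, against 4699.6, 5212 and 5299.9 in wt arrays, with an interval from -0.21 to 0.14. Ppp1r9a, or neurabin, an actin-binding protein that brings PP1 to dendritic spines, had 4679, 4837 and 4436 in Tg arrays, against 4607, 4886 and 4709.6 in wt arrays (interval -0.20 to 0.14). The groups overlap for both genes. Ppp2r2c, a B subunit of PP2A found mainly in brain, had 6198, 5284 and 5457 in Tg arrays, against 5875, 5488 and 5477 in wt arrays (interval -0.18 to 0.19). Ppp2r5c, a B′ subunit, had 3701, 2911 and 3226 in Tg arrays, against 3165, 3204 and 3198 in wt arrays, with Tg 1 as the highest and Tg 2 as the lowest array. Ppp2r3a, a B″ subunit, had 1192, 1103 and 1103 in Tg arrays, against 1199.5, 969 and 1186 in wt arrays (interval -0.24 to 0.28).

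Most PP4 subunit genes had a positive log2 fold change, small in size. Of 7 genes, a pseudogene (Ppp4r1l-ps) included, 6 had a positive log2 fold change, with a median of 0.09, where 44.1% of all genes had one. After median centring of the arrays 5 of 7 were positive, and 4 of 7 after quantile normalization. PP6 was similar, with 3 of 4 genes positive and a median of 0.11. Further probesets of Ppp4r1l-ps and Ppp4r3a had both signs. Ppp4r2, which targets the PP4 catalytic subunit, had 2144, 2248 and 2337 in Tg arrays, against 2051, 1953 and 1869.7 in wt arrays (log2 fold change 0.19 with an SE of 0.09, unadjusted p = 0.0555, adjusted p = 0.527). All its Tg arrays were above all its wt arrays. The mean deviation of the 7 genes from their own means was -0.02, 0.08 and 0.11 in Tg arrays, against -0.02, -0.06 and -0.09 in wt arrays. Tg 1 did not stand above wt 1 in this mean.

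**Figure D4:**
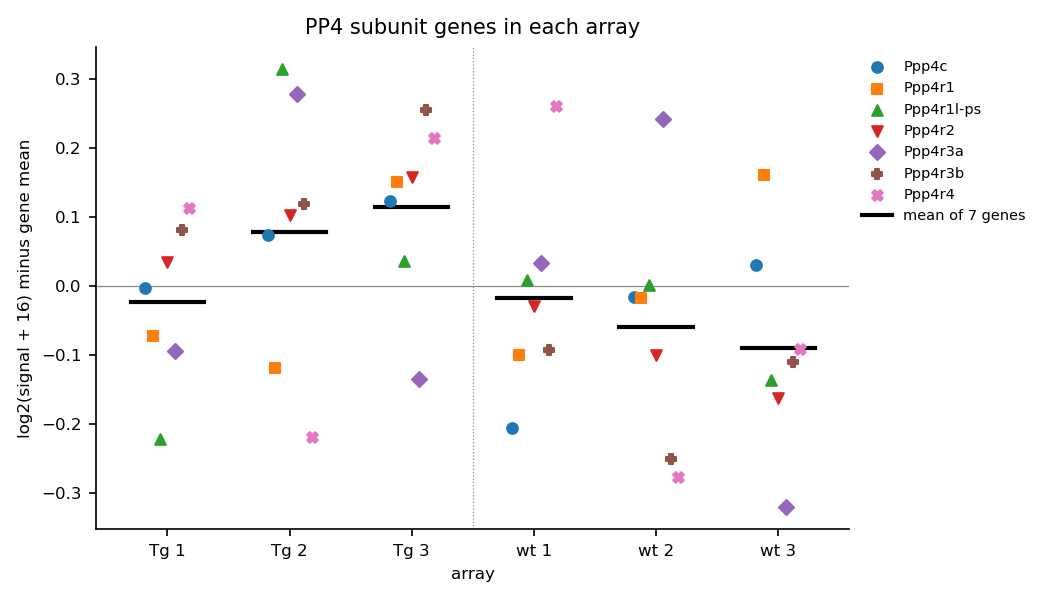
Each symbol is the log2(signal + 16) of 1 of the 7 PP4 genes minus that gene's mean over the 6 arrays (vertical axis), by array (horizontal axis), and black bars are means over the 7 genes. The bars lie at -0.02, 0.08 and 0.11 in Tg arrays and at -0.02, -0.06 and -0.09 in wt arrays, with Ppp4r3a and Ppp4r4 scattered in both groups.

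Many of the genes were read by several probesets, and these often disagreed. Of the 67 genes, 40 had more than 1 measured probeset. In 23 of these the probesets had log2 fold changes of both signs, which is 57.5%, against 58.5% of all 6780 genes with several probesets. In Ppp1cc, Ppp2r3c and Ppp3cb, 1 probeset had every Tg array above and another every Tg array below the wt arrays, which is 7.5% of the 40, against 2.18% of the 6780. The number of probesets per gene reached 7 among the phosphatase genes and 12 among all genes. Over all 147 phosphatase probesets, the brightest included, 82 had a positive log2 fold change, against 16547 of all 31076 probesets.

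**Figure D5:**
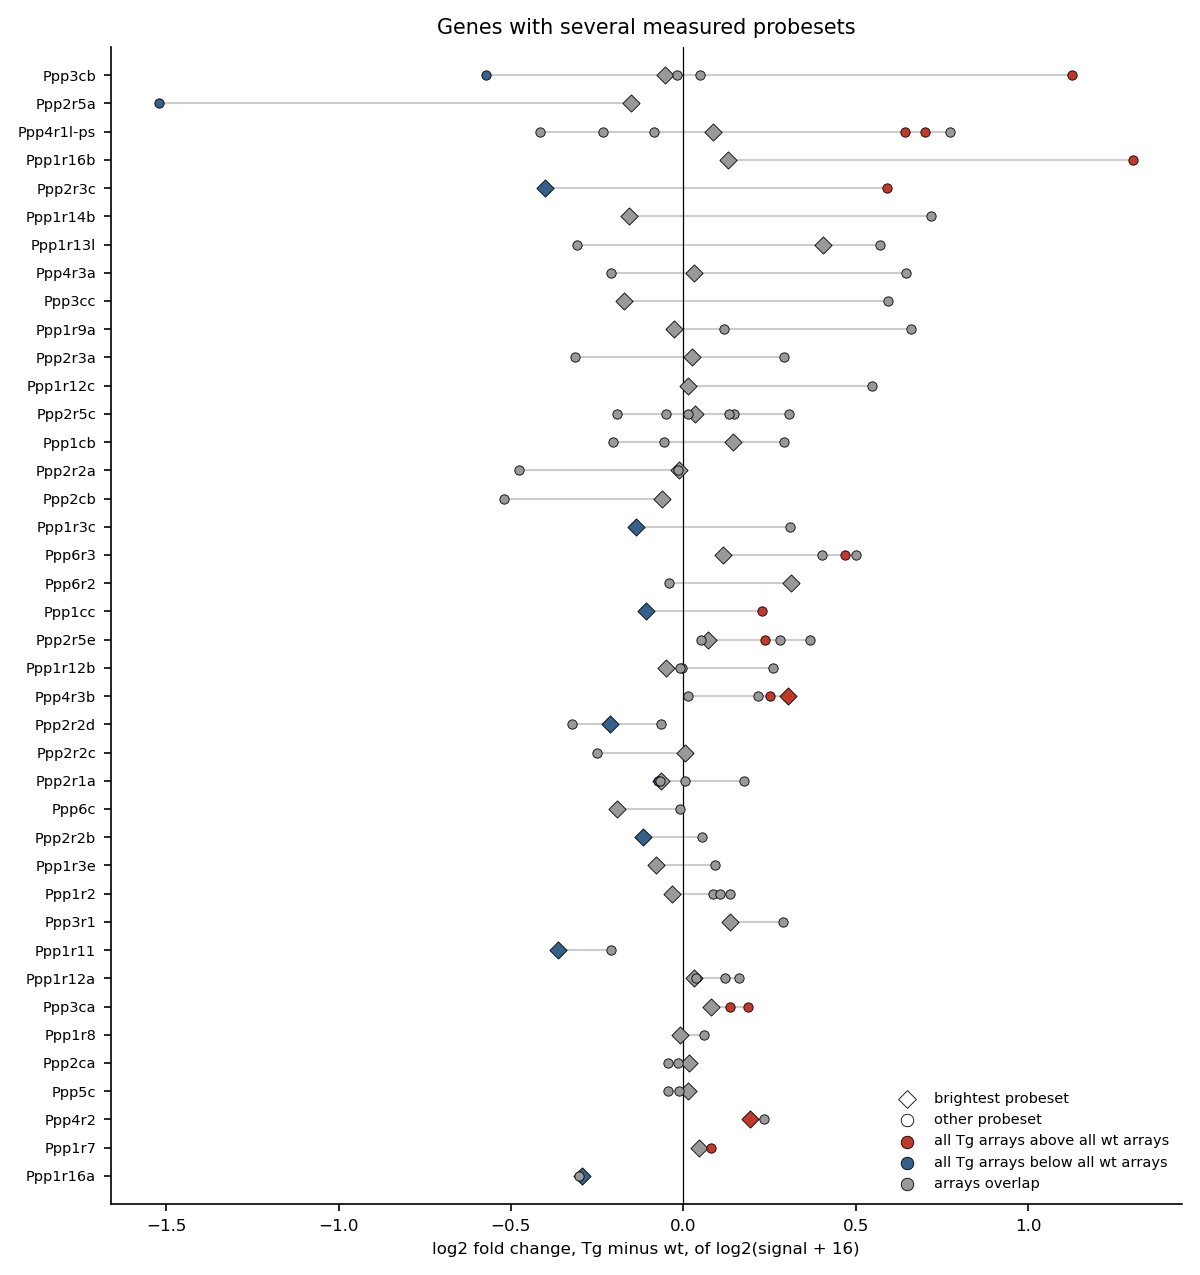
Log2 fold change (Tg minus wt, horizontal axis) at every measured probeset of the 40 genes with several, with diamonds for the brightest, and genes ordered by the range between their probesets. Colours mark probesets whose Tg arrays are all above (red) or all below (blue) the wt arrays, and both colours appear in the rows of Ppp1cc, Ppp2r3c and Ppp3cb.

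Over all 147 probesets of the phosphatase genes, 5 were higher in Tg mice and 5 lower at an unadjusted limma p under 0.05, where 5.91% and 3.78% of all 31076 probesets were. The lowest adjusted p was again 0.288. Of the further probesets, Ppp6r3, a regulatory subunit of PP6, had 642, 561 and 737 in Tg arrays, against 482, 417 and 484 in wt arrays at 1439161_at, without overlap (log2 fold change 0.47 with an SE of 0.15, unadjusted p = 0.00936, adjusted p = 0.34), and without Tg 3 the unadjusted p was 0.0502. At its brightest probeset it had 1014, 980.4 and 1027 in Tg arrays, against 925, 1009 and 856 in wt arrays, and the groups overlap. Ppp1r16b, a PP1 subunit of endothelial membranes also called TIMAP, had 121, 133 and 109 in Tg arrays, against 40.5, 8.4 and 106 in wt arrays at the dim 1425414_at (log2 fold change 1.31 with an SE of 0.53, unadjusted p = 0.031, adjusted p = 0.462). When 1 array was left out this value ran from 0.72 (without wt 2, unadjusted limma p of 0.119) to 1.88 (without wt 3), and its p was above 0.05 without Tg 1, Tg 2 or Tg 3, with array weights (0.0634) and in limma without the trend (0.0553). With 64 in place of 16 as the added constant it was 0.76. At its brightest it had 1897, 1644 and 1889 in Tg arrays, against 1599, 1645 and 1708 in wt arrays, where Tg 2 lay among the wt arrays. Ppp2r5a, a B′ subunit of PP2A, had 80.3, 9.4 and 15.2 in Tg arrays, against 151, 93.8 and 82.2 in wt arrays at the dim 1440189_at (log2 fold change -1.52 with an SE of 0.56, unadjusted p = 0.0182, adjusted p = 0.409). This value ran from -2.15 with 1 to -0.85 with 64 as the added constant, and from -2.11 (without Tg 1) to -1.15 (without Tg 2) when 1 array was left out, with an unadjusted p above 0.05 without Tg 2, Tg 3 or wt 1 (0.0729 at most). Its brightest probeset had 1579.8, 1911 and 1579.7 in Tg arrays, against 1691, 1874 and 2070.3 in wt arrays (log2 fold change -0.15), and its groups overlap.

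The remaining 11 genes did not pass the filter, with signals between 0.7 and 107.9 on all arrays. They are Ppp1r14bl, Ppp1r14d, Ppp1r17, Ppp1r1c, Ppp1r2-ps7, Ppp1r2-ps9, Ppp1r27, Ppp1r32, Ppp1r42, Ppp2r2cos and Ppp3r2. Ppp3r2 is a calcineurin B subunit known from testis, and Ppp2r2cos is annotated as lying opposite Ppp2r2c. In a fit with no filter, Ppp1r14bl and Ppp1r17 were lower in Tg at an unadjusted limma p under 0.05, at these low signals, and none was called after adjustment.

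Genes listed as partners of these phosphatases gave few differences. The list of 50 also holds targets of calcineurin and 15 genes of the metal-dependent (PPM) phosphatases and PP7. Of the 50, 44 were measured, and 17 of these had a positive log2 fold change, where 44.1% of all genes had one. After adjustment 0 were called by limma or Cyber-T (0% and 0.217% of all genes). At an unadjusted limma p under 0.05, 0 were higher and 1 was lower, where 2.9% and 4.97% of all genes were. That gene was Rcan2, a regulator of calcineurin, with 3809, 4624 and 3961 in Tg arrays, against 5125, 5274 and 4615 in wt arrays (log2 fold change -0.28 with an SE of 0.10, unadjusted p = 0.0129, adjusted p = 0.371), where Tg 2 lay just above wt 3. Among 11 measured regulators and targets of calcineurin 6 values were positive, and Fkbp1a, the binding protein of the calcineurin inhibitor FK506, had 17481, 16875 and 16063 in Tg arrays, against 19293, 16321 and 16902 in wt arrays, with overlap. Of 12 inhibitors, activators and striatins of PP2A, 4 were positive. The PP2A inhibitor Set had 4932, 4832 and 4702 in Tg arrays, against 5277, 4648 and 5191 in wt arrays (interval -0.24 to 0.12), and Anp32a, also an inhibitor of PP2A, had 4235, 4332 and 4359.7 in Tg arrays, against 4334, 4882 and 4485 in wt arrays (interval -0.26 to 0.09). Each of them overlaps between the groups.

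The ankyrin repeat subunits of PP6 were measured in 3 genes, and Ankrd28 had 899.5, 931 and 1049 in Tg arrays, against 778, 1049 and 909 in wt arrays. Ankrd44 had 271, 278 and 297 in Tg arrays, against 309.9, 338 and 318 in wt arrays, all Tg arrays below all wt arrays (log2 fold change -0.18 with an SE of 0.17, unadjusted p = 0.312, adjusted p = 0.762). Of 5 partners of PP1, 1 was positive. Phactr1, which binds PP1 and actin, had 3504, 2593 and 2825 in Tg arrays, against 2962, 3033 and 3082 in wt arrays, and Phactr3 had 3161, 2604 and 2737 in Tg arrays, against 3596, 2948 and 2865 in wt arrays, both with overlap. Of 13 measured metal-dependent (PPM) phosphatases, which form a separate family, 5 were positive. Ppm1e had 5317, 5270.2 and 4871 in Tg arrays, against 4804, 5353 and 4908 in wt arrays, with an interval from -0.14 to 0.22. Ppm1b had 4685, 4655 and 4352 in Tg arrays, against 4604, 4652 and 4139 in wt arrays, with an interval from -0.15 to 0.21. Neither separated the groups. Over the 44 partner genes, every Tg array lay above every wt array in 0 and below in 6, where this held for 5.2% and 8.81% of all genes.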

How the data were processed

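Hippocampal RNA of 3 Tg and 3 wt mice was hybridised to 1 array per mouse, and the number of arrays limits the precision. The authors deposited MAS5 intensities (signals on a linear scale), 1 for each probeset of each array, already scaled to a common trimmed mean. RMA values, on which the study's own lists rest, were made from scanned images that were not analysed here.

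The table holds 45101 probesets, of which 64 are controls. Of the rest, the 31% lowest by mean log2 level were dropped, leaving 31076 whose mean signal was 48.8 or more. Group means of log2(signal + 16) were fitted with limma 3.58.1 in R 4.3.3, with variances moderated along the intensity trend. The Benjamini-Hochberg adjustment covered every probeset left. For Cyber-T the window was 101 probesets and the confidence 10. Each gene takes the brightest probeset annotated to it alone. Figures used matplotlib 3.10.9.

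The members and lists were chosen with earlier results of these data known. The text names every catalytic and calcineurin subunit and every gene with an unadjusted p under 0.05 at any probeset left. It also names every gene whose arrays do not overlap with a log2 fold change of at least 0.3 in size. The 2 brightest genes of each regulatory role of PP1, PP2A and PP4 are named too, but not those of PP6. Partner genes are named by the same p or as the 2 brightest of their role. Other genes are named where they make up a small count, after their values were seen, and Ppp1r13b because the study lists it. Tested on simulated data of the same comparison (31076 probesets), limma found 4.48% of the 1.3-fold, 56.7% of the 2-fold and 87.9% of the 4-fold differences. These were set in 67, 67 and 66 probesets drawn from all, with independent normal noise, and 10 unchanged probesets were called as well. The shares for phosphatase probesets alone, which were brighter and less variable, were not computed. Alternatives were other added constants, scalings, filters, variance models and probesets, Cyber-T, a replicate block and leaving out each array. Another asked for a fold of at least 1.3 besides an unadjusted limma p of at most 0.05. It left out the study's limit on the false discovery rate. Promoters were matched by symbol.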

Additional observations from a re-analysis of the deposited data

How the results depend on the processing

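No phosphatase or partner gene was called at an adjusted p under 0.05 under any alternative run (other added constants, scalings, filters, variance models and probesets, Cyber-T, the replicate block, and without each array), with a lowest adjusted p of a phosphatase gene from 0.138 to 0.578. The count of genes higher in Tg at an unadjusted p under 0.05 was 1 as reported, 4 after quantile normalization and with probesets averaged, 2 without a filter, with array weights and by Cyber-T, 0 with a fold of at least 1.3 as well, and 0 to 2 when 1 array was left out (0 without Tg 3 or wt 2). After quantile normalization the 4 were Ppp1cb, Ppp3r1, Ppp4r2 and Ppp4r3b. With probesets averaged they were Ppp1r16b, Ppp1r9a, Ppp4r2 and Ppp6r3, without Ppp4r3b. Ppp4r2 was also counted without a filter, with array weights and without wt 1. The count of genes lower in Tg was 3 as reported, 7 with each array centred on its median, 5 without a filter, 1 with a fold of at least 1.3 as well, and 3 to 5 when 1 array was left out (5 without Tg 2). Ppp1r11 and Ppp1r16a were lower at an unadjusted p under 0.05 in each of these fits, the fold threshold aside. Tg and wt arrays of the same replicate number were not more alike than others. Their correlations were -0.0159, 0.00779 and 0.0333, against -0.0422 to 0.0364 for differently numbered arrays. The labels do not state whether arrays were paired, and 3 arrays a group cannot exclude it. The replicate block left the counts at 0 called, 1 higher and 3 lower.

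The log2 fold changes of some named genes changed sign. Among the genes with an unadjusted p under 0.05 this was Ppp2r3c (-0.40 as reported), with its probesets averaged. After quantile normalization the value was 0.0147 for Ppp3cb, 0.00748 for Ppp1r2, 0.014 for Ppp1r9a, 0.0105 for Ppp2r1a and -0.0011 for Ppp2r1b. With each array centred on its median the value was -0.0338 for Ppp1ca, -0.0495 for Ppp2ca, -0.0538 for Ppp5c, -0.0265 for Ppp2r1b, -0.0606 for Ppp2r2c, -0.0332 for Ppp2r5c and -0.0423 for Ppp2r3a. With array weights the value was -0.0152 for Ppp2r1b. With the probesets of a gene averaged the value was 0.11 for Ppp3cb, 0.21 for Ppp3cc, 0.0595 for Ppp1cc, -0.0145 for Ppp2ca, -0.0148 for Ppp5c, 0.0947 for Ppp2r3c, 0.074 for Ppp1r2, 0.25 for Ppp1r9a and -0.12 for Ppp2r2c. When 1 array was left out the value ran from -0.0022 to 0.0636 for Ppp1ca, -0.0859 to 0.000553 for Ppp1r2, -0.0548 to 0.00725 for Ppp1r9a, -0.0215 to 0.0447 for Ppp2ca, -0.13 to 0.0276 for Ppp2cb, -0.0444 to 0.15 for Ppp2r1b, -0.0631 to 0.0517 for Ppp2r2c, -0.0745 to 0.0772 for Ppp2r3a, -0.0572 to 0.12 for Ppp2r5c, -0.12 to 0.00468 for Ppp3cb and -0.0915 to 0.0697 for Ppp5c. The cause was not tested. Dim probesets near the filter, such as those of Ppp1r10 and Ppp1r3b, give the least precise values, and 1.3-fold differences were rarely recovered in simulated data with 3 arrays a group.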
